A study of Mus musculus with 4 samples.

Results

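Oxidative phosphorylation subunit genes are the nuclear genes that encode the proteins of the respiratory chain and of ATP synthase. They were taken here by symbol: every gene whose name begins with Ndufa, Ndufb, Ndufc, Ndufs or Ndufv and a digit (complex I), Sdha to Sdhd (complex II), Uqcr or Cyc1 (complex III), Cox4 to Cox8 (complex IV) and Atp5 (complex V). The rule found 85 of the 23420 genes in the files, with 37 in complex I, 4 in complex II, 9 in complex III, 18 in complex IV and 17 in complex V. Of the 85, 81 passed the minimum of 100 recovered reads over all replicates and were tested. The rule also takes some proteins that are not subunits of the complex their symbol names: Cox7a2l is an assembly factor of respiratory supercomplexes, Atp5s and Atp5sl are not parts of ATP synthase, and Ndufa4 was named for complex I although its protein is found in complex IV. They were kept where their symbols place them.

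The respiratory chain lies in the inner mitochondrial membrane. Complexes I and II take electrons from NADH and succinate, ubiquinone carries them to complex III, cytochrome c carries them on to complex IV, and there they reduce oxygen. Complexes I, III and IV pump protons as electrons pass, and ATP synthase uses the returning protons to make ATP. Complexes I, III, IV and V also contain proteins encoded by mitochondrial DNA, whose genes were not analysed here. Sensory hair cells of the cochlea are rich in mitochondria, and aminoglycosides such as gentamicin are antibiotics that bind ribosomes and can kill hair cells.

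The study compared cochlear cells of CD1 mice at postnatal day 1 that carried the Atoh1-GFP transgene, in which an Atoh1 enhancer drives GFP and marks hair cells. Organs of Corti of all groups were cultured overnight under 5% O2 and 5% CO2, and treated organs then received 0.5 mM gentamicin for 3 h. GFP-positive hair cells (HC) and GFP-negative non-hair cells (NHC) were sorted from control and treated organs, giving 4 groups of 3 biological replicates, 12 libraries in all. Cells with weak GFP were gated out, and the non-hair cells were a mixture of supporting cells, other epithelial cells and surrounding tissue.

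Each replicate was represented by 22400600 to 28152200 recovered reads on genes. Values are the deposited normalized scores, which are reads scaled within each replicate with 1 added and are not divided by gene length. Known markers of hair cells, 10 in number, summed to scores of 12190 to 12540 in control hair cells and of 203 to 240.0 in control non-hair cells. By these markers the fractions matched their names. The 10 supporting cell markers did not separate the fractions, at 2751 to 3329 in control hair cells and 2295 to 4704 in control non-hair cells. Their median log2 difference was 0.46, with 3 called higher and 2 lower in hair cells. In bulk RNA a lower score can stand for fewer cells that express a gene or for less RNA per cell, and these cannot be told apart. The members together made up 0.882% to 0.932% of all score in control hair cells, 0.791% to 0.899% in treated hair cells, 0.747% to 0.801% in control non-hair cells and 0.754% to 0.806% in treated non-hair cells.

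The main comparison asked how the subunit genes in hair cells responded to gentamicin. Of the 81 members tested, 22 fell and 1 rose at an adjusted p under 0.05 (limma, Benjamini-Hochberg over 16077 genes), against 18.4% of all genes tested called lower and 14.8% called higher. The 22 members make 27.2% of those tested, a share above that of all genes that was not kept under every setting: with scaling by total reads 8 members fell (9.88%), against 12.2% of all genes. The median log2 difference was -0.19 over the members and -0.09 over all genes tested, and 73 of the 81 members lay below 0, against 59.9% of all genes. Most of the changes were small: the members that fell had a median change of -20.1%, and 16 of the 22 lost between 10% and 25% of their score.

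**Figure D1:**
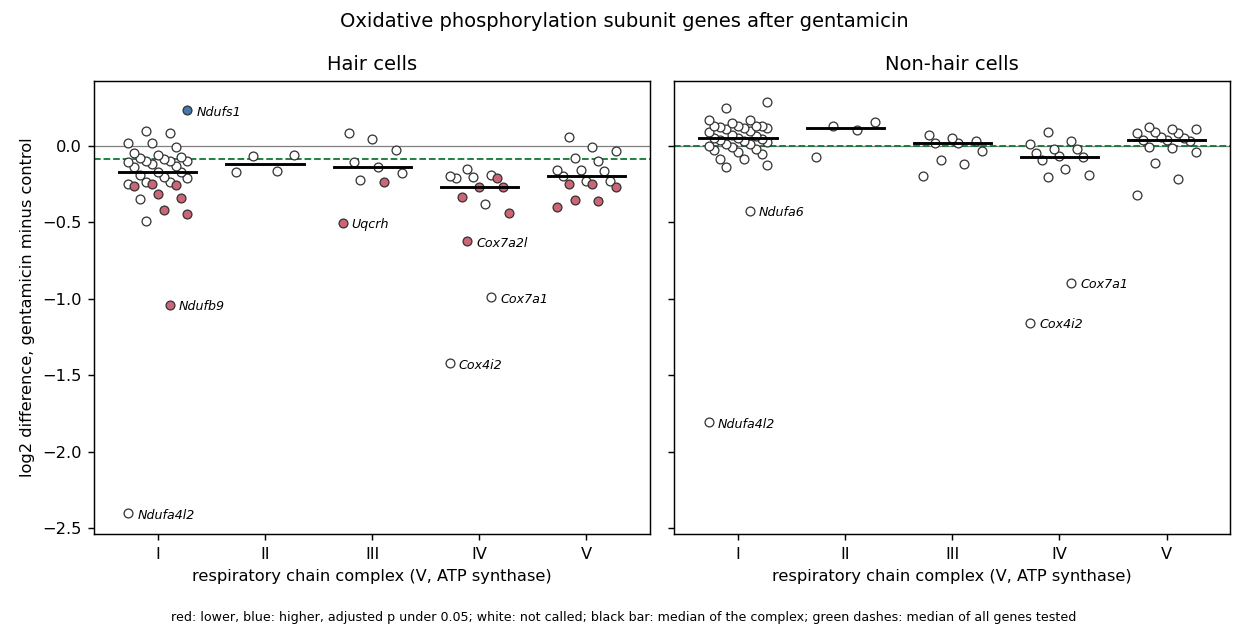
Log2 difference between gentamicin and control (vertical axis) of the 81 tested members in hair cells (left) and non-hair cells (right), by complex. Each circle is a gene, red circles were called lower and blue higher at an adjusted p under 0.05, black bars are medians and the dashed line is the median of all genes tested. The medians of all 5 complexes lie below the dashed line in hair cells, from -0.12 in complex II to -0.27 in complex IV, while in non-hair cells no member was called.

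Counts by complex are read against the 18.4% of all genes tested called lower and the 14.8% called higher. Complex IV had the lowest median, -0.27, and 6 of its 14 tested members fell (42.9%), Cox7a2l among them. In complex V 6 of 17 fell (35.3%) with a median of -0.20. In complex I 8 of 37 fell (21.6%) and 1 rose (2.7%), with a median of -0.17. In complex III 2 of 9 fell (22.2%) with a median of -0.14. The shares that fell in complexes I and III were near that of all genes. None of the 4 genes of complex II was called, and their median was -0.12. With scaling by total reads the members lower were Cox4i1 and Cox7a2l of complex IV and Atp5d and Atp5g2 of complex V. The others were Ndufa2, Ndufa6 and Ndufb9 of complex I and Uqcrh of complex III. No test between complexes was made.

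Ndufb9, an accessory subunit of complex I, was the subunit gene with the largest change among those called. It lies on chromosome 15 at 58933756 to 58939488 (mm10, plus strand). Its scores were 114, 109 and 100.1 in control hair cells and 56.4, 48.8 and 51.9 after gentamicin. The lowest control was far above the highest treated replicate, and the gene fell by 1.04 on the log2 scale (SE 0.08, adjusted p = 2.11e-05). Ndufb9 is transcribed away from Tatdn1, whose start lies 17 bases from its own on the opposite strand. Tatdn1, chosen as a neighbour after the values were seen, did not move with it: its scores were 11.3, 12.7 and 13.1 in control and 18.5, 21 and 14.2 in treated hair cells, a rise of 0.52 on the log2 scale (SE 0.14, adjusted p = 0.0171 in limma). Of the annotated exon bases of Ndufb9, 19.5% are shared with a second gene model on the same strand.

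Accessory subunits made up most of the other complex I members that fell. Ndufa6, an accessory subunit with an LYR motif, scored 68.0, 70.6 and 63.8 in control hair cells and 55.7, 47.9 and 45.2 in treated hair cells. Its log2 difference was -0.45 (SE 0.11, adjusted p = 0.00995), and its groups did not overlap. The accessory subunits Ndufa2 (-0.42), Ndufb11 (-0.34), Ndufa3 (-0.31), Ndufa13 (-0.26) and Ndufb7 (-0.25) also fell, with adjusted p from 0.016 to 0.0466. Ndufb7 was not called in any of the 6 fits that left out a hair cell replicate.

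Ndufs1, the largest core subunit of complex I and the carrier of several iron-sulfur clusters, went the other way. It lies on chromosome 1 at 63143596 to 63176833 (mm10, minus strand). Its scores were 151, 147 and 153 in control hair cells and 170.2, 181 and 179 after gentamicin, so all treated replicates were above all controls. The rise was 0.23 on the log2 scale (SE 0.07, adjusted p = 0.0204). The call was lost without HC control replicate 1 or 2 or HC gentamicin replicate 2 or 3. Among further core subunits of complex I, 5 were not called, with log2 differences of -0.09 for Ndufs3, -0.05 for Ndufs7, 0.02 for Ndufs8, -0.12 for Ndufv1 and -0.10 for Ndufv2.

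In complex II, succinate dehydrogenase, the catalytic subunits and the membrane anchors all had small differences. Sdha, the flavoprotein that oxidizes succinate, scored 201, 195 and 198 in control and 185, 195 and 188 in treated hair cells. Its difference was -0.06 (95% interval -0.22 to 0.10), so the ranges met and no change was detected. The values were -0.17 for the iron-sulfur subunit Sdhb, -0.17 for the anchor Sdhc and -0.07 for the anchor Sdhd, with adjusted p of 0.134, 0.134 and 0.525 in limma. With scaling by total reads Sdha and Sdhd lay above 0 and were not called.

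In complex III the members that fell were small subunits outside the catalytic core. Uqcrh, the hinge protein that helps cytochrome c1 to meet cytochrome c, lies on chromosome 4 at 116066965 to 116075071 (mm10, minus strand). It scored 201, 203 and 190.4 in control hair cells and 153, 149.8 and 119 after gentamicin, a log2 difference of -0.50 (SE 0.11, adjusted p = 0.00646). The lowest value was in gentamicin replicate 3, and the groups were well apart. The small subunit Uqcr11 fell from 104, 107 and 108 to 95, 92.8 and 82.7 (log2 difference -0.24, SE 0.07, adjusted p = 0.0281). The catalytic subunits among the members were not called: the Rieske protein gene Uqcrfs1 had a difference of -0.03 (95% interval -0.17 to 0.12) and cytochrome c1 (Cyc1) of -0.14. The core proteins Uqcrc1 and Uqcrc2 had differences of -0.11 and 0.04 and were not called either. The small subunit Uqcr10 had a difference of -0.23 (SE 0.09, adjusted p = 0.0633 in limma), although its treated replicates were all below its controls.

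Complex IV, cytochrome c oxidase, had the largest share of members that fell in the fit reported (42.9%), the supercomplex factor Cox7a2l included. Cox7a2l (chromosome 17, 83501918 to 83517330, mm10, minus strand) scored 154, 159.7 and 148 in control hair cells and 107, 100.5 and 92.0 after gentamicin. The treated replicates were about 35.2% below the controls, with a log2 difference of -0.63 (SE 0.08, adjusted p = 0.000366). Cox4i1, the main isoform of the regulatory subunit 4, scored 260.4, 247 and 244 in control and 199, 182 and 173 in treated hair cells. It fell by 0.44 on the log2 scale (SE 0.09, adjusted p = 0.00356), again with no overlap. Cox6b1, Cox5a, Cox7a2 and Cox6a1, structural subunits that surround the mitochondrially encoded core, fell by 0.34, 0.27, 0.27 and 0.21 on the log2 scale, with adjusted p of 0.0157, 0.048, 0.0483 and 0.0125. Cox5b, Cox7b, Cox7c and Cox8a had differences of -0.19, -0.20, -0.20 and -0.21 and were not called.

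**Figure D2:**
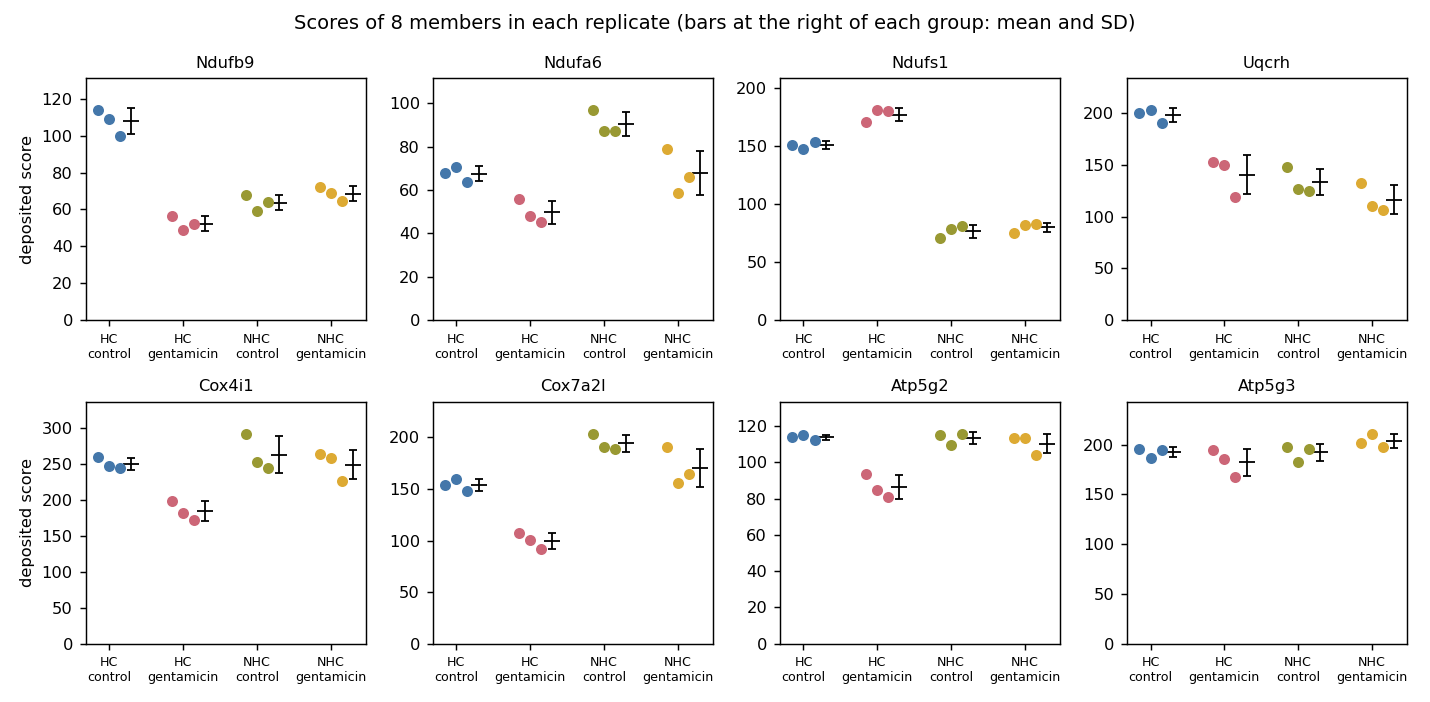
Deposited score (vertical axis, from 0) of 8 members in each of the 3 replicates of the 4 groups, with mean and SD beside each group. In hair cells the treated replicates of Ndufb9, Ndufa6, Uqcrh, Cox4i1, Cox7a2l and Atp5g2 lie below all controls, those of Ndufs1 lie above, and those of Atp5g3 overlap the controls.

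In complex V the genes for subunit c, which forms the rotating ring in the membrane, were not all called. Atp5g1, Atp5g2 and Atp5g3 lie on chromosomes 11, 15 and 2 and encode the same mature protein behind different import sequences. Atp5g2 scored 114, 115 and 112 in control hair cells and 93.7, 84.6 and 80.7 after gentamicin, a log2 difference of -0.40 (SE 0.07, adjusted p = 0.00117). Atp5g1 scored 98.9, 92.1 and 87.3 in control and 79.4, 77.2 and 76.9 in treated hair cells, a difference of -0.25 (SE 0.06, adjusted p = 0.0113). Atp5g3 scored 195, 187 and 195 in control and 194, 185 and 168 in treated hair cells, a difference of -0.08 (95% interval -0.23 to 0.07), and was not called. Treated replicates of the first 2 genes were below every control, whereas those of Atp5g3 overlapped the controls. Whether the 3 differences differ from each other was not tested.

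The last 228 coding bases of these genes, which hold the mature protein, are shown because reads of 50 bases must tell them apart. They were read 5′ to 3′ from GENCODE M21 transcripts up to and including the stop codon, and capitals mark positions where the 3 genes do not all have the same base.
Atp5g1: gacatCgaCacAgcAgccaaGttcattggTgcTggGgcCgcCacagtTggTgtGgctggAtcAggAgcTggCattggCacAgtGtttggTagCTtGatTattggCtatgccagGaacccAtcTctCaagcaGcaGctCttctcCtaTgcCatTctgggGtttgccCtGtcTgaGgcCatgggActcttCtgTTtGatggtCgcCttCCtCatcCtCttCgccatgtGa
Atp5g2: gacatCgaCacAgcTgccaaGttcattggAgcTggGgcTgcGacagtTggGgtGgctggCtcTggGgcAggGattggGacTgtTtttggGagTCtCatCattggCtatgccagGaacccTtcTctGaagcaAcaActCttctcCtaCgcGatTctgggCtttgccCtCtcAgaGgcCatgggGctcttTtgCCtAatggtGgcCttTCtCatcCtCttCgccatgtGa
Atp5g3: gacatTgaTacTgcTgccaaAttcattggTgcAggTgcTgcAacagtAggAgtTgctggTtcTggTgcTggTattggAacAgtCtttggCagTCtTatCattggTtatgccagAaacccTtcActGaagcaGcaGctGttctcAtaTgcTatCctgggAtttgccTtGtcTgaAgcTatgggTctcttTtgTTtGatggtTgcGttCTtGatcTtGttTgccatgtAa

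The 3 sequences had the same base at 170 of 228 positions, and 52 of the 58 differing positions were the last base of a codon. The longest stretch shared by whole coding transcripts was 21 bases between Atp5g1 and Atp5g2, 11 between Atp5g1 and Atp5g3 and 9 between Atp5g2 and Atp5g3, all shorter than a read. Among the other isoform pairs compared, the longest shared stretch was 28 bases, between Ndufa4 and Ndufa4l2. Pseudogene copies were not searched.

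Among the other ATP synthase genes, the central stalk and the peripheral stalk both had members that fell. Atp5d, the delta subunit of the central stalk, scored 159, 159 and 146 in control and 131, 128 and 127 in treated hair cells, a log2 difference of -0.27 (SE 0.06, adjusted p = 0.00542). Atp5h and Atp5o, of the peripheral stalk, fell by 0.36 and 0.35 on the log2 scale, and Atp5c1, the gamma subunit, fell by 0.25, with adjusted p of 0.0157, 0.0171 and 0.0457. The catalytic beta subunit gene Atp5b scored 1149, 1122 and 1099.8 in control and 986, 989 and 902 in treated hair cells. Its ranges did not overlap, but the difference of -0.23 (SE 0.09) had an adjusted p of 0.0755 in limma and was not called. The alpha subunit gene Atp5a1 had a difference of -0.16 (adjusted p = 0.117).

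The 22 calls were not equally firm. Of them, 7 were called in all 17 fits run on hair cells: Ndufa6, Ndufb9, Uqcrh, Cox4i1, Cox7a2l, Atp5d and Atp5g2. Without HC control replicate 1, 10 members fell (12.3%), against 13.7% of all genes. Without HC gentamicin replicate 3, 11 fell (13.6%), against 15.8%, and without HC control replicate 2, 12 fell (14.8%), against 10.8%. The share of the members was thus below that of all genes in the first 2 of these fits and above it in the last. At a fold change above 1.2 with an unadjusted p below 0.01 in limma, 12 fell and 0 rose, against 14.8% and 12.7% of all genes. By replicates alone, 44 of 81 members had all treated hair cell values below all controls, against 33.1% of all genes tested, and 1 had all above, against 21.7%.

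Members are short, with a median of 1569 annotated exon bases against 4282 over the genes tested, and well expressed. Among the 49 tested members under 2 kb 17 fell (34.7%) and 0 rose, against 15.6% and 9.95% of all genes tested under 2 kb. Among the 32 longer members 5 fell (15.6%) and 1 rose (3.12%), against 18.8% and 15.7% of all genes tested of 2 kb or more. The share that fell was thus above that of all genes in the short members and below it in the longer ones. Over all 877 genes tested with a mean score of 20 to 1200 and under 2 kb, 21.4% were lower and 9.81% higher, with a median of -0.13. The part of length and level in the members' result was not tested beyond a fit corrected for length, in which 19 members fell (23.5%, against 16.8%).

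Several measures moved with the treated hair cells. The median of the members against the control mean was -0.11, -0.19 and -0.28 in gentamicin replicates 1, 2 and 3. The summed score of 12 hypoxia-induced genes, chosen after the values were seen, was 1484, 1022 and 385 in the same replicates and 1948 to 2299 in control hair cells. Marker sums of other cells also differed: mesenchyme (8 markers) 189 to 474 in control and 98.0 to 156 in treated hair cells, endothelium (6) 13.4 to 23.9 and 7.21 to 12.9, Schwann cells (5) 222 to 266 and 114 to 190.0, macrophages (5) 1.71 to 3.17 and 12.1 to 17.7, and melanocytes 9.30 to 12.3 and 6.51 to 7.70. Cd68 was the 1 macrophage marker called higher, at 2.13, 2.84 and 2.34 in control and 13.7, 17.9 and 10.9 in treated hair cells, and the median log2 difference of the 5 markers was 0.06. The sums of the 10 supporting cell markers overlapped, at 2751 to 3329 and 1441 to 2808, but all 10 lay below 0 with a median log2 difference of -0.67 and 2 were called lower. Of pericyte genes, also chosen after the values were seen, Cspg4 (-1.40), Pdgfrb (-1.38) and Abcc9 (-0.84) were called lower in treated hair cells. Des (-0.43), Kcnj8 (-0.24) and Rgs5 (-0.10) were not called, and their scores in hair cells were low. Hair cell markers (10) were 12190 to 12540 and 10175 to 11547 with none called. Every one of these markers had reads in treated hair cells, and the part of other cells in the members' result was not tested.

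In non-hair cells no member was called after gentamicin, against 0.106% of all genes called lower and 0.236% called higher by limma. At an unadjusted p under 0.05 in limma there were 7 of the 81 members, against 2753 of the 16077 genes tested, which is a larger share. The next smallest p were those of Ndufb7 (0.24), Atp5s (-0.32), Atp5c1 (-0.22) and Ndufa10 (0.13), given with their log2 differences, and their adjusted p ran from 0.185 to 0.247 in limma. The median difference of the members was 0.03 and that of all genes -0.01, and 34 of 81 members lay below 0. By replicates, 11 members had all treated values below all controls, against 7.68% of genes, and 2 had all above, against 10.1%. Ndufa6 had the smallest p: its scores were 96.9, 87.2 and 87.3 in control and 78.8, 58.8 and 65.8 in treated non-hair cells, a log2 difference of -0.43 (SE 0.11, adjusted p = 0.107), and the groups did not overlap. At a fold change above 1.2 with an unadjusted p below 0.01, Ndufa6 was the 1 member that passed, against 2.26% of all genes lower and 3.18% higher. Its difference in hair cells was -0.45, and the difference between the responses was -0.02 (95% interval -0.36 to 0.32).

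The responses of hair cells and non-hair cells were then compared directly, as the interaction term of the same fit. The response of 6 members was lower in hair cells and of none higher, against 6.57% and 6.85% of all genes. The 6 make 7.41% of the members, near the share of all genes, and with the replicate block 11 were lower (13.6%), against 7.41% of all genes. For Ndufb9 the difference between responses was -1.15 (SE 0.11, adjusted p = 0.000652). Its scores in non-hair cells were 67.9, 59.4 and 63.8 in control and 72.4, 68.7 and 64.6 after gentamicin, so that the treated hair cells came to lie below non-hair cells although the control hair cells were above them. The other 5 were Ndufa2 (-0.55), Ndufb7 (-0.50), Cox7a2l (-0.43), Atp5g2 (-0.36) and Atp5g1 (-0.34), with adjusted p from 0.0212 to 0.044. At an unadjusted p under 0.05 in limma there were 20 of the 81 members, against 4870 of the 16077 genes tested, which is a larger share. The count of 6 became 1 (1.23%) without HC control replicate 1 or 2, HC gentamicin replicate 2 or NHC gentamicin replicate 1. In these fits 4.04%, 3.02%, 3.61% and 3.95% of all genes were lower. The count became 2 without NHC control replicate 2 (2.47%, against 3.45%) and 3 without HC control replicate 3 (3.7%, against 4.25%). Without NHC gentamicin replicate 3 the count became 10 (12.3%, against 7.41%). Of the 6, Ndufb9 alone was called in each of the 12 fits that left out a replicate.

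A separate set of members varied between replicates far more than the rest. Ndufa4l2, Cox4i2 and Cox7a1 are isoforms with restricted expression, and the first 2 are known to be induced in low oxygen. Ndufa4l2 scored 58.8, 62.4 and 61.0 in control hair cells and 45.8, 20.1 and 1.64 after gentamicin. In non-hair cells it scored 254, 153 and 96.4 in control and 231, 3.98 and 95 in treated replicates. Its log2 differences were -2.40 (SE 1.39) and -1.81 (SE 1.39), and neither was called (adjusted p = 0.206 and 0.535 in limma).

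Cox4i2 and Cox7a1 had the same low replicates. Cox4i2 scored 28.4, 30.2 and 27.5 in control and 17.9, 9.20 and 7.45 in treated hair cells, without overlap, and 35.6, 32.8, 30.3 and 28.2, 5.05, 22.4 in non-hair cells. Cox7a1 scored 5.30, 6.13, 6.48 and 5.00, 3.34, 1.61 in hair cells, and 10, 7.81, 8.45 and 7.10, 2.14, 6.76 in non-hair cells. The lowest treated value of each gene was in replicate 3 of the hair cells and in replicate 2 of the non-hair cells. The sum of hypoxia-induced genes was lowest in the same libraries, at 385 and at 1036, where the other treated non-hair cell replicates had 4151 and 2674. Leaving out these 2 libraries together, a choice made after the data were seen, left 12 members lower in hair cells (14.8%, against 18.4% of all genes) and 3 in the comparison of responses (3.7%, against 5.92%), both shares below those of all genes.

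**Figure D3:**
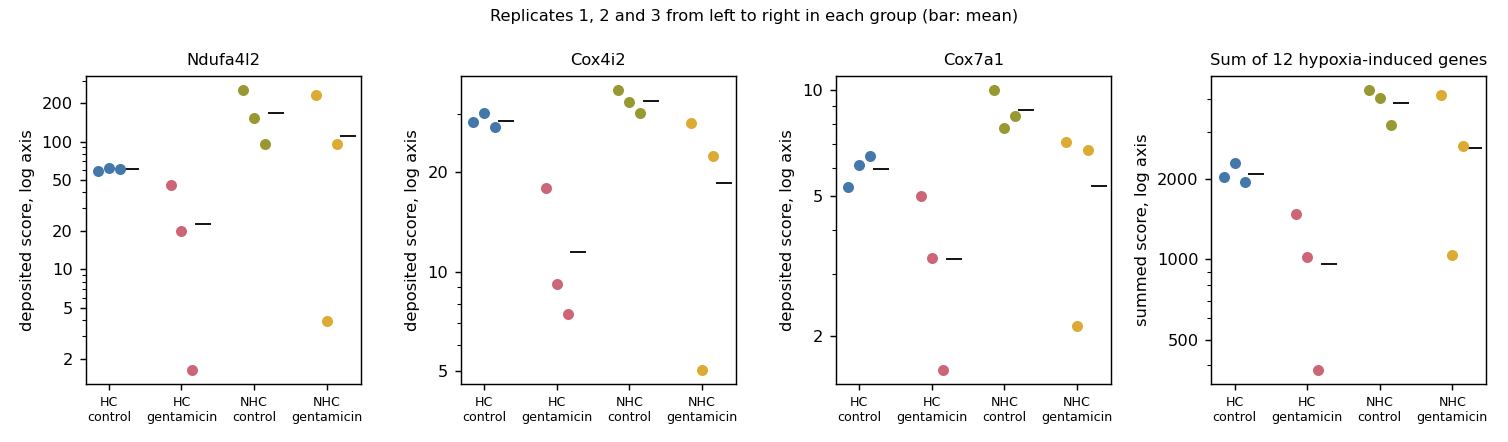
Deposited scores of Ndufa4l2, Cox4i2 and Cox7a1 and the summed score of 12 hypoxia-induced genes (log axes) in replicates 1 to 3 of each group, with group means as bars. Gentamicin replicate 3 of hair cells and gentamicin replicate 2 of non-hair cells are the lowest of their groups in all 4 panels.

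Ndufa4 and Cox4i1 are the widely expressed partners of Ndufa4l2 and Cox4i2. Ndufa4 scored 103, 101.3 and 114.5 in control and 100.7, 110.6 and 98.1 in treated non-hair cells, and Cox4i1 scored 292, 253 and 244 in control and 264, 258 and 226 in treated non-hair cells. In both genes treated replicate 2 lay within the range of the control non-hair cells. In hair cells Ndufa4 had 157, 154 and 142 in control and 142, 129 and 125 in treated replicates, a log2 difference of -0.19 that was not called (adjusted p = 0.0745 in limma), and replicate 3 was the lowest as in Cox4i1. Other isoforms of restricted tissues were near the limit of detection: Cox6a2 and Cox8b of muscle had 54 and 51 recovered reads over the 12 replicates, and Cox7b2 and Cox8c of testis had 16 and 3. Cox6a2 had 3 and 3 reads in control and treated hair cells and 33 and 15 in control and treated non-hair cells, and Cox8b had 24 and 22 in hair cells and 2 and 3 in non-hair cells.

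The untreated populations were then compared to give the levels without drug. These controls also enter the comparisons above. Of the 81 members 37 were higher in hair cells and 10 lower, against 31.9% and 42.2% of all genes tested. The median difference was 0.16 over the members and -0.12 over all genes. With median-of-ratios scaling the median of all genes was -0.01, and 49 members were higher (60.5%, against 36.7% of all genes) and 9 lower (11.1%, against 37.6%). By replicates, 40 members had all hair cell values above all non-hair cell values, against 34.5% of all genes, and 13 had all below, against 44.6%. Members higher in hair cells numbered 14 of 37 in complex I, 3 of 4 in complex II, 6 of 9 in complex III, 6 of 14 in complex IV and 8 of 17 in complex V.

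**Figure D4:**
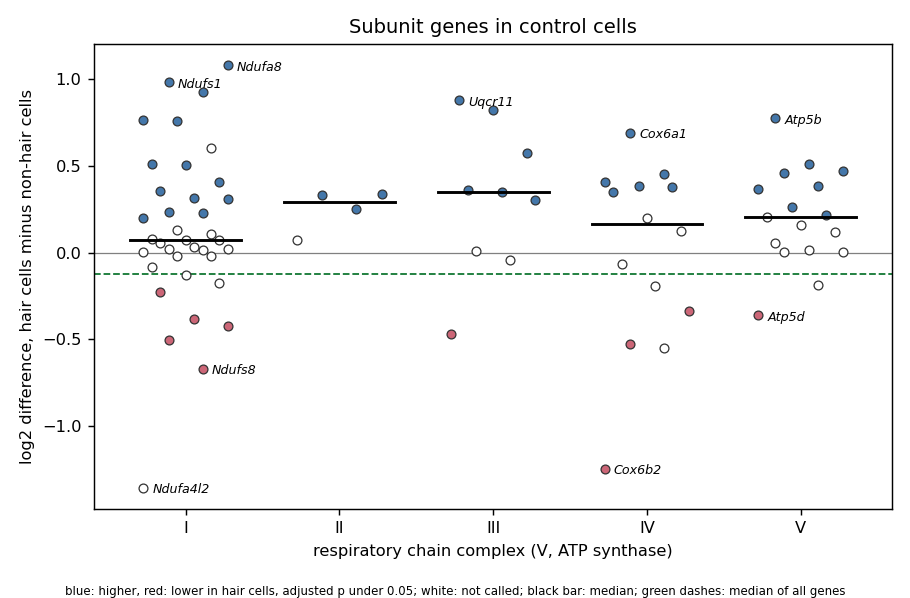
Log2 difference of untreated hair cells minus untreated non-hair cells (vertical axis) of the tested members by complex, with blue for genes called higher in hair cells, red for lower and white for neither. Members spread from -1.36 to 1.08, and the median of every complex lies above 0 and above the dashed median of all genes.

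The members with the largest differences came from several complexes. Ndufa8, an accessory subunit of complex I, scored 136, 124 and 119 in control hair cells and 65.6, 58.4 and 55.6 in the non-hair cell controls, higher on the log2 scale by 1.08 (SE 0.08, adjusted p = 2.9e-07). Ndufs1 scored 70.3, 77.9 and 80.9 in control non-hair cells, and was higher in hair cells by 0.98 (SE 0.07, adjusted p = 1.01e-07). Uqcr11 and Cyc1 were higher by 0.88 and 0.82, Cox6a1 by 0.69, Atp5b by 0.77 and the peripheral stalk gene Atp5j by 0.51, with no overlap between the replicates of any of them.

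The 10 members lower in control hair cells included an isoform of restricted tissues and the complex I core subunits Ndufs7 and Ndufs8. Cox6b2, an isoform of Cox6b1 best known from testis, scored 2.56, 3.91 and 4.04 in hair cells and 7.86, 8.68 and 7.91 in non-hair cells, a log2 difference of -1.25 (SE 0.18, adjusted p = 5.33e-05). Ndufs8, an iron-sulfur core subunit of complex I, scored 34.4, 33.6 and 30.6 in hair cells and 60.3, 46.4 and 50.7 in non-hair cells, a difference of -0.67 (SE 0.11, adjusted p = 0.000151). Cox6c was lower by 0.53, Ndufs4 by 0.50, Uqcrb by 0.47, Ndufs7 by 0.38 and Atp5d by 0.36 on the log2 scale. Atp5g2 and Atp5g3 had differences of 0.00 and 0.00. Of the 22 members that fell with gentamicin in hair cells, 9 were higher in control hair cells, 4 were lower and 9 were not called.

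Levels between members were compared as score per kb of annotated exons. In control hair cells Cox8a was highest at 338 ± 2.58 (SD, n = 3), followed by Cox6a1 at 295 ± 9.24, Atp5b at 265 ± 5.82 and Atp5a1 at 261 ± 5.29. The last pair did not differ beyond its spread. In control non-hair cells the order was Cox8a (247 ± 22.0), Atp5a1 (203 ± 5.67), Cox6a1 (182 ± 5.63), Cox4i1 (169 ± 16.6) and Atp5b (155 ± 11.9), so the catalytic Atp5b stood below Atp5a1 there. By complex, the median level in control hair cells was 86.3 for complex IV, 75.3 for III, 62.2 for V, 44.6 for II and 37.9 for I.

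Other genes of the pathway were read from lists by role. The 46 tested assembly factors, proteins that build the complexes but are not part of them, had a median of 0.11 in treated hair cells, with 12 higher and 3 lower. All genes called higher and lower in these lists are read against the shares of 14.8% and 18.4% given above, and none of the lists had a member called in non-hair cells. Those assembly factors that rose included Cox11 (0.94) and Sco1 (0.78), which deliver copper to cytochrome c oxidase, Ndufaf4 (0.66) and Ndufaf6 (0.52) of complex I, Sdhaf1 (0.44) of complex II, Uqcc (0.28) of complex III and Tmem70 (0.58) of ATP synthase. Tmem186 of complex I fell by 0.55 on the log2 scale. Cox11 scored 39.2, 41.5 and 47.5 in control and 79.0, 102.5 and 67.3 in treated hair cells, and all treated replicates were above the controls. Of the assembly factors for complex IV, 5 rose and 1 fell of 21, while 6 of its 14 tested members fell.

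The list of transcriptional regulators had 10 of 18 genes higher and 2 lower, with a median of 0.29. Tfb2m (0.69) and Tfam (0.46), factors of mitochondrial transcription, rose, as did the GA-binding protein genes Gabpa (0.48), Gabpb1 (0.42) and Gabpb2 (0.33), Pprc1 (1.02), Esrra (0.30) and Yy1 (0.29). Gabpa scored 60.1, 59.5 and 59.0 in control and 78.8, 90.2 and 79.8 in treated hair cells. Its exons share 397 bases with Atp5j on the opposite strand, and whether strand was kept in the counting is not given in the sources used here. Nrf1 had a difference of 0.08 and the coactivators Ppargc1a and Ppargc1b of -0.77 and -0.14, and none was called (adjusted p = 0.638, 0.175 and 0.482 in limma). Sp1 fell by 0.64 and Ppard by 0.29.

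**Figure D5:**
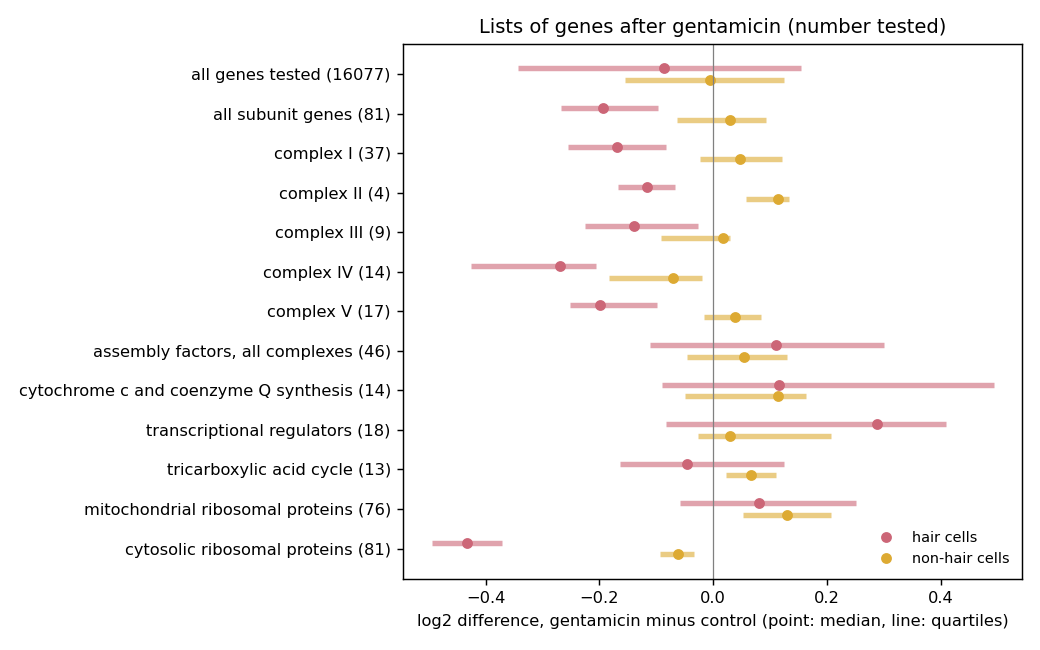
Median (points) and quartiles (lines) of the log2 difference between gentamicin and control for lists of genes, in hair cells (red) and non-hair cells (yellow), with the number tested in brackets. In hair cells the medians of the subunit genes (-0.19) and the cytosolic ribosomal proteins (-0.43) lie below that of all genes (-0.09), and those of the assembly factors (0.11), regulators (0.29) and mitochondrial ribosomal proteins (0.08) lie above it.

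Genes that neighbour the chain in metabolism moved in either direction. In the list of cytochrome c and coenzyme Q synthesis 4 of 14 rose and 1 fell, the former being Pdss1 (1.08), Pdss2 (0.76), Coq10b (0.71) and Coq6 (0.59). In the tricarboxylic acid cycle 2 of 13 rose, Dld (0.28) and Suclg2 (0.28), and 2 fell, Idh3g (-0.34) and Sucla2 (-0.27). Mitochondrial ribosomal proteins had 16 of 76 higher and 4 lower with a median of 0.08, with Mrpl1 (0.84) and Mrps22 (0.72) among those that rose and Mrpl14 (-0.61) among those that fell. The cytosolic ribosomal proteins, another set of short and abundant transcripts, had 1 of 81 higher and 45 lower with a median of -0.43, among them Rps4x (-0.63) and Rpl23 (-0.56). The ATP synthase inhibitor Atpif1 had a difference of -0.22 and was not called (adjusted p = 0.144).

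Promoters of the members were read from RefSeq (GRCm38.p6, 250 bases before to 50 after each start), which had entries for 66 of the 85. A set of 3 motifs known for nuclear genes of mitochondrial proteins were searched on both strands: GCATGCGC of NRF1, CCGGAAG of ETS factors such as GABP, and AAGATGGC of YY1. The NRF1 letters were in 10 of 66 members (15.2%) and in 3.05% of all genes, the ETS letters in 16 (24.2%) and 9.93%, and the YY1 letters in 9 (13.6%) and 3.19%. Among the 18 members with an entry that fell in treated hair cells, 4 held the NRF1, 6 the ETS and 1 the YY1 letters, and among the 46 other tested members 6, 10 and 8. These counts describe letters in a window, not binding.

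The bases upstream of the start of 3 members called in every fit that hold motif letters are shown as examples. They are written 5′ to 3′ on the strand of the gene, with motif letters in capitals. They lie at chr15:102671048-102671297 for Atp5g2, chr15:82354292-82354541 for Ndufa6 and chr4:116075071-116075320 for Uqcrh, all on the minus strand of GRCm38.p6. In Atp5g2 the NRF1 letters occur on both strands and overlap. Atp5d and Cox7a2l, also called in every fit, held none of the motifs in the same upstream stretch and are not shown.
Atp5g2: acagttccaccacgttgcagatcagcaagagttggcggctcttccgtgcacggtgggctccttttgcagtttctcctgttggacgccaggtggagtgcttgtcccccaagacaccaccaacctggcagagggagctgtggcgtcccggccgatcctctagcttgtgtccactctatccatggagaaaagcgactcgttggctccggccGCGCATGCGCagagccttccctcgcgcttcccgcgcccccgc
Ndufa6: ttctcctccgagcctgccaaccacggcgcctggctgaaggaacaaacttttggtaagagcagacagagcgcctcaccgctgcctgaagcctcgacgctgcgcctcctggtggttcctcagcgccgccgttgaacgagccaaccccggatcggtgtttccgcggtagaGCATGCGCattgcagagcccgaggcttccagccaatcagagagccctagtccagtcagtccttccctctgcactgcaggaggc
Uqcrh: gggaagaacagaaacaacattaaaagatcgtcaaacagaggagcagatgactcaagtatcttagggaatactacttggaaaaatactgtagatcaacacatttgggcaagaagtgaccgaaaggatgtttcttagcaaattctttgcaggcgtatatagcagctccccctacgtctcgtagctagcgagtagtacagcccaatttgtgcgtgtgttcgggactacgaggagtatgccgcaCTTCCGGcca

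Exons of 29 members share bases with another annotated gene, and for 11 the share is over 10%. Atp5o, Ndufa13, Ndufb11, Ndufb9, Cox5a and Ndufa2 are the members among these 11 that fell in treated hair cells, and Cox6a2 was under the minimum of reads. Of all 81 tested members 27.2% fell, against 18.4% of all genes tested. Whether shared bases go with a call was not tested. For members with shared bases, and for members with near copies elsewhere in the genome, the counts can hold reads of another gene.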

How the data were processed

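Polyadenylated RNA was extracted from sorted cells, and libraries were made with the Illumina TruSeq mRNA kit and sequenced as 50 bp single-end reads. Per the labels and the methods of the study, the authors trimmed reads at a quality of 25, aligned them to mm10 with TopHat 2 in PartekFlow and computed a normalized score for each gene. The deposited scores are described by the authors as RPKM, but they are not divided by length: after an offset of 1 is taken off, most low values are whole multiples of a step of 1 read in each replicate. Between 73.8% and 75.3% of values under 50 reads came out whole within 0.02 of a read, so the unit was treated as a score and not as a count. The gene annotation and the scaling factor are not given in the sources used here. Each of the 4 deposited tables holds 3 replicate columns.

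The log2 scores of the 16077 genes with at least 100 recovered reads over 12 replicates entered 1 linear model of the 4 groups in limma (version 3.58.1, R 4.3.3), whose variances were moderated by empirical Bayes along a trend in the mean score. P-values were adjusted over all genes tested by Benjamini-Hochberg. A gene was called at an adjusted p under 0.05. The gene specific analysis of PartekFlow was not repeated. Fold changes are on the scale of log2 of the score with its offset of 1, which understates changes of low genes. Depth was 22400600 to 28152200 recovered reads per replicate, and values of a few reads carry wide counting error. Scores per kb use the union of exons in GENCODE M21, with lengths for all 85 members. The gene count and lengths were handled in Python 3.11.15 with pandas 2.3.3 and numpy 2.4.6, and plots were drawn with matplotlib 3.10.9.

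The replicates are called biological in the study, but which organs or animals each held is not given in the sources used here. Replicate numbers recur between groups. Deviations from group means correlated between same-numbered replicates at 0.0369, 0.0523 and 0.0369 for control and treated hair cells, at 0.208, -0.232 and 0.683 for control and treated non-hair cells, and at 0.216, 0.316 and 0.2 for the control populations. Of the pairs of groups checked, the numbers pair the samples only between the control populations, from the data and not from the labels. Treated hair cells against treated non-hair cells were not checked. The fit reported has no replicate block, and the fit with it is an alternative.

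The members, lists and tests were chosen with earlier results of these data known. In each complex the 4 members with the smallest p for gentamicin in hair cells and the 2 with the largest difference between the controls were named, with the 5 smallest p in non-hair cells and for the difference between responses, isoform sets, core subunits, members under the minimum and the leading genes and named regulators of the other lists. Members that were called are also named, and the hypoxia-induced genes, pericyte genes and neighbours were chosen after their values were seen. The alternatives were other scalings, offsets and minimums of reads, the call criteria of the study, a replicate block, a correction for length, another variance model, fits of only the groups compared and leaving out each replicate. Mitochondrially encoded genes were not analysed here, and some genes that the rule would name are not reported here.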

Additional observations from a re-analysis of the deposited data

Results flagged for a closer look

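The responses of 6 members to gentamicin differed between hair cells and non-hair cells by the interaction test (limma, adjusted p under 0.05). They make 7.41% of the members tested, all of them lower in hair cells, and 6.57% of all genes were called lower. The differences between responses, hair cells minus non-hair cells, were -1.15 for Ndufb9, -0.55 for Ndufa2, -0.50 for Ndufb7, -0.43 for Cox7a2l, -0.36 for Atp5g2 and -0.34 for Atp5g1. When each of the 12 replicates was left out in turn, Ndufb9 was called in 12 fits, Ndufb7 in 8, Atp5g1 in 6, Atp5g2 in 5, Cox7a2l in 4 and Ndufa2 in 2.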

How the results depend on the processing

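The 81 tested members were refitted under every alternative. With scaling by total reads 8 members were lower in treated hair cells (9.88%) with a median of -0.0977, against 12.2% lower and a median of -0.0126 over all genes, and 2 members differed between responses (2.47%, against 4.46%). Under that scaling Sdhd was at 0.0285 and Sdha at 0.0342 in hair cells, against -0.0679 and -0.0627, and Sdhd ran from -0.131 to 0.0215 (without HC gentamicin replicate 3) when each replicate was left out, and was also at 0.0215 without both libraries of lowest hypoxia-induced sums. The call criteria of the study gave 12 lower and 0 higher in hair cells, against 14.8% and 12.7% of all genes. In non-hair cells they gave 1 lower, against 2.26% of all genes. Leaving out each replicate gave 10 to 23 lower in hair cells (12.3% to 28.4%), against 10.8% to 15.8% of all genes. It gave 0 to 1 higher in hair cells, against 10.3% to 13.8% of all genes, and 0 of either in non-hair cells. For the difference between responses 1 to 10 were lower (1.23% to 12.3%), against 3.02% to 7.58% of all genes. There were 10 without NHC gentamicin replicate 3, and 1 without HC control replicate 1 or 2, HC gentamicin replicate 2 or NHC gentamicin replicate 1. Without the 2 libraries of lowest hypoxia-induced sums, chosen after seeing the data, 12 were lower and 0 higher in hair cells, against 18.4% and 14.8% of all genes. In the difference 3 were lower (3.7%, against 5.92%). Without a trend of variance the difference had 2 members lower (2.47%, against 5.96% of all genes). With the replicate block 29 members were lower in hair cells (35.8%, against 20.1% of all genes) and 0 were called in non-hair cells. With it 11 were lower in the difference (13.6%, against 7.41%). Between controls 38 were higher (46.9%, against 32.2%) and 10 lower (12.3%, against 42.6%) with the block. Between controls, median-of-ratios scaling gave a median of 0.2812, and the length correction gave 56 higher, 5 lower and a median of 0.3616. With the length correction these were 69.1% and 6.17% of the members, against 39.5% and 35.0% of all genes. The median level per kb was 64.3, 63.5, 62.0 and 60.1 in control hair cells, treated hair cells, control non-hair cells and treated non-hair cells with the longest transcript as length. The causes were not tested. Of the recomputed values of single genes and lists, 2433 kept direction and call, 144 lost and 7 gained a call, 204 moved and 4 changed sign. The number of replicates and reads limits what can be seen: differences near 0.1 on the log2 scale were about the size of their standard errors.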
